A study of Homo sapiens with 32 samples.

Results

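A set of 10 genes of the BCL2 family was followed in 2 diffuse large B-cell lymphoma lines treated with a CSK inhibitor (CSKi). They were taken by gene symbol from a table of 25066 features: the 4 pro-survival genes BCL2, BCL2L1, MCL1 and BCL2A1, and the 6 BH3-only genes BCL2L11, BMF, BBC3, PMAIP1, HRK and BID. All 10 were found, each in 1 row. In GENCODE v29 (GRCh38), BCL2 and PMAIP1 lie on chromosome 18, BCL2A1 and BMF on chromosome 15, and BCL2L1, MCL1, BCL2L11, BBC3, HRK and BID on chromosomes 20, 1, 2, 19, 12 and 22. TMD8 and DOHH2 are established human lines, and every group carried the same genotype, Cas9 engineered. Cells received vehicle (DMSO) or CSKi at 500 nM (written 500nm in the labels) for 1, 3, 6 or 24 h, with 2 libraries for each of the 16 groups and 32 in all. The duplicates are called bio replicates but are not said to come from separate cultures, so the p-values measure the spread between these libraries, which may be technical. TMD8 is known as an activated B-cell type line and DOHH2 as a germinal centre type line that carries the translocation placing BCL2 under immunoglobulin heavy chain control. Each is 1 line, so a difference between TMD8 and DOHH2 is between these 2 lines and not between the types.

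The BCL2 family sets the threshold for mitochondrial apoptosis. Pro-survival proteins hold the pore formers BAX and BAK1 in check, and BH3-only proteins bind the pro-survival proteins or activate the pore formers directly, so that the balance of both groups decides whether cytochrome c is released. In B cells several BH3-only genes are controlled at the transcript level by growth factor and antigen receptor signals. CSK phosphorylates the inhibitory tail tyrosine of Src family kinases such as LYN, which act directly below the B cell receptor. CSKi acts on the protein, so the CSK transcript does not check the treatment: it differed by -0.14 ± 0.03 (log2, CSKi minus DMSO, ± SE, n = 2 per group) in TMD8 at 3 h and by -0.21 ± 0.04 in DOHH2 at 6 h.

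The deposited values are log2 normalized counts. Total mapped reads ran from 12273442 to 24907030 per library. The B cell markers, MS4A1 and CD79A among them, were high in both lines. The T and NK cell markers CD3D and CD2 were listed at 0 in every TMD8 vehicle library, and NKG7 stood there at a median of 3.54 (log2 normalized count). In the DOHH2 vehicle libraries CD2 was listed at 0, but CD3D, CD3E, CD3G and NKG7 were detected, at medians of 3.13, 4.90, 3.79 and 5.96. DOHH2 also held the myeloid markers CD33 and LYZ, at medians of 10.48 and 7.48 (log2 normalized count in vehicle). The other myeloid markers CD14, CSF1R and MPO stood there at medians of 1.16, 2.03 and 0. TMD8 held the fibroblast markers COL1A1, COL1A2 and DCN at 8.68, 6.16 and 4.11. Of the epithelial markers, EPCAM and KRT19 were listed at 0 in all vehicle libraries of both lines, whereas KRT8 was detected in every TMD8 vehicle library, from 4.98 to 5.89. In bulk RNA, fewer cells of a type and less RNA per cell cannot be told apart.

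The DOHH2 libraries at 24 h stood apart and went against their labels. Across the tested features, the library labelled DMSO replicate 1 was closest to the one labelled CSKi replicate 2, with an SD of the log2 differences of 0.218, against 0.328 between the libraries labelled DMSO and 0.381 between those labelled CSKi. The library labelled DMSO replicate 2 was closest to the one labelled CSKi replicate 1, at 0.275. The same pairs held for the 10 BCL2 family genes, whose mean absolute difference was 0.132 and 0.129 within these pairs and 0.265 and 0.352 within the labelled groups. The other DOHH2 duplicates differed by an SD of 0.189 to 0.214. The DOHH2 values below therefore come from the 12 libraries of 1, 3 and 6 h, and the counts with the 24 h libraries in the fit are given beside them.

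Sequence just upstream of the start site is shown for HRK and BMF, which had the largest differences in TMD8 at 24 h, and for BCL2L11, the most abundant BH3-only transcript there. The windows hold the 250 bases before the start from RefSeq (GRCh38.p14, whereas the reads were aligned to hg19), written 5′ to 3′ on the gene's strand. They lie at chr2:111120664-111120913 on the plus strand for BCL2L11, at chr15:40108880-40109129 on the minus strand for BMF and at chr12:116881442-116881691 on the minus strand for HRK. The BCL2L11 window lies inside the GENCODE v29 gene, which has a start further upstream, and the BMF window runs into the first exon bases of its GENCODE gene. Capitals mark a motif match.
BCL2L11: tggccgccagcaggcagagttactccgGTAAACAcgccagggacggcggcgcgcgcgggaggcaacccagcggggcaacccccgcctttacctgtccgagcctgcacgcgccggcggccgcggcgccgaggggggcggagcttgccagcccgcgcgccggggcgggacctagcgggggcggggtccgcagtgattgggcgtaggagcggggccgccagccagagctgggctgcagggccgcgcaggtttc
BMF: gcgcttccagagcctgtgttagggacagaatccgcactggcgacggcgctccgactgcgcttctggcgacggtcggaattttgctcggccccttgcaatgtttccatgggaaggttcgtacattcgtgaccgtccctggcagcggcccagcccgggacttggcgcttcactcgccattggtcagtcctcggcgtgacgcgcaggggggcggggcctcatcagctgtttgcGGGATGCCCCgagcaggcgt
HRK: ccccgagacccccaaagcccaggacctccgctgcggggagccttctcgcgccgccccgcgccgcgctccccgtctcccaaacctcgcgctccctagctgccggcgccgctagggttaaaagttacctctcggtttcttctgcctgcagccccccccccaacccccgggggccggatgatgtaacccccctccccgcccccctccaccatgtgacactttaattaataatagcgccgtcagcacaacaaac
The motifs searched, on both strands, were the forkhead core GTAAACA, the E-box CACGTG, the AP-1 site TGACTCA and the NF-kB site by its name. The BCL2L11 window held GTAAACA with its first base 223 bases before the start, a motif that 2.98% of the 35116 promoter windows held. The BMF window held an NF-kB match 20 bases before the start, as did 9.96% of windows. RefSeq lists another BMF start, whose window held no match and is not shown. No match was found in the HRK window, which says only that these letters are not in these 250 bases. A window was found for 9 of the 10 genes, 15 windows in all. Of these, 1 held GTAAACA, 1 the NF-kB site, 1 the AP-1 site and 3 the E-box. The AP-1 match was in BBC3 and the E-box matches in BBC3 and in overlapping windows of BID, none of them shown. Of all windows, 4.20% held the AP-1 site and 6.35% the E-box. The matches are descriptions and not shown to be sites.

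In vehicle, the 2 lines held different members at the top. Levels between genes are compared here as normalized counts per kilobase of exon, from the GENCODE v29 exon lengths, over the 6 DMSO libraries of 1, 3 and 6 h. The SDs and overlaps therefore hold the changes between these hours as well as the spread between duplicates. In TMD8, BCL2A1, a pro-survival gene known as an NF-kB target, was highest at 4585 ± 122 per kilobase (SD, n = 6). BCL2L11, which encodes the BH3-only protein BIM, followed at 3118 ± 212, and MCL1, a short-lived pro-survival protein, at 2072 ± 155. These 3 did not overlap one another. BID came next at 595.8 ± 53.4, a BH3-only protein cleaved by caspase 8, and overlapped BMF at 517.1 ± 24.3. BCL2L1 at 458.5 ± 16.9, which encodes BCL-XL, overlapped BCL2 at 423.6 ± 44.7. PMAIP1 (the gene of NOXA), BBC3 (the gene of PUMA) and HRK closed the order, PMAIP1 at 268.3 and BBC3 at 150.0, without overlap between neighbours.

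DOHH2 placed PMAIP1 first at 1709 ± 608 per kilobase (SD, n = 6), with a range of 1115 to 2479 that overlapped MCL1 at 1022 ± 96.0. This overlap is between hours, since PMAIP1 was lowest at 6 h and MCL1 highest at 3 h. Within each hour both PMAIP1 libraries lay above both MCL1 libraries. BCL2 was the third at 518.0 ± 21.6 and BCL2L11 the fourth at 435.2 ± 35.4, neither overlapping its neighbours. BMF followed at 328.7 ± 23.4. BID, BCL2L1, BCL2A1, BBC3 and HRK came last, from 252.1 down to 68.8, and each of these 5 overlapped its neighbours among them over the pooled hours. Within each hour, BCL2A1 lay above BBC3 and BBC3 above HRK. With the length of the listed transcript in place of all exons, BCL2 moved from the seventh to the fifth place in TMD8 and BID from the sixth to the fifth in DOHH2, while the top 4 genes stayed in the same order in both lines.

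**Figure D1:**
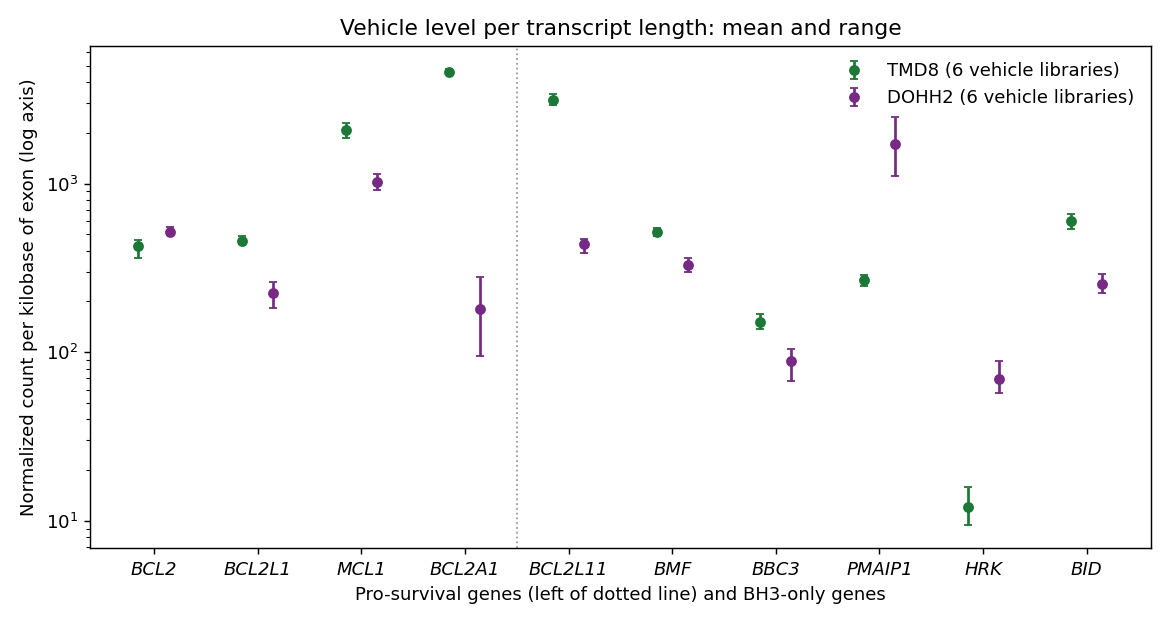
Level of the 10 genes in vehicle, as normalized counts per kilobase of exon on a log axis. Points are means and bars the range over the 6 DMSO libraries of 1, 3 and 6 h in each line. BCL2A1 sits at 4585 in TMD8 and 180 in DOHH2, and PMAIP1 at 268 in TMD8 and 1709 in DOHH2.

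The line difference was tested for each gene on the log2 scale over the same vehicle libraries, with limma across the 12000 features of highest mean. All 10 genes differed: 7 were higher in TMD8, where 43.8% of the tested features were called higher, and 3 lower, where 45.6% were. Since most features differed between the lines, a call says little by itself and the sizes carry the description. BCL2A1 was 27.5-fold higher in TMD8 (log2 difference 4.78 ± 0.06, SE, n = 6 per line, adjusted p = 9.0e-28). It lay between 12.25 and 12.41 in the TMD8 vehicle libraries and, in those of DOHH2 at 1 to 6 h, between 6.70 and 8.25. BCL2L11 was 7.17-fold higher in TMD8 (2.84 ± 0.01). BID, BCL2L1, MCL1, BBC3 and BMF were higher in TMD8 by 1.24, 1.04, 1.02, 0.76 and 0.66 on the log2 scale. PMAIP1 was 6.06-fold lower in TMD8 (-2.60 ± 0.03) and HRK 5.73-fold lower (-2.52 ± 0.11). BCL2 was 1.23-fold lower in TMD8 (-0.30 ± 0.02), the smallest of the 10 differences. These 10 calls held under every alternative that was run.

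Vehicle levels also moved with time in culture. In TMD8, 7 of the 10 genes passed an F test over 1, 3, 6 and 24 h in DMSO, against 58.4% of the tested features. BMF, whose protein is held at the cytoskeleton by a dynein light chain, was between 11.37 and 11.53 at 1 to 6 h and at 10.56 and 10.59 at 24 h. BCL2L11 stood at 14.46 in both libraries at 6 h and at 14.05 and 14.03 at 24 h. BID went the other way, from 11.24 and 11.22 at 6 h to 11.68 and 11.70 at 24 h. BCL2A1, BBC3 and PMAIP1 did not pass, though BBC3 passed without DMSO replicate 1 of 3 h (adjusted p = 0.0295). The HRK call was lost without DMSO replicate 2 of 1 h, replicate 1 of 3 h or replicate 2 of 24 h (adjusted p up to 0.288). In DOHH2, all 10 genes passed over 1, 3 and 6 h, against 52.9% of features, and 4 with the 24 h libraries in the fit. Leaving out 1 DMSO library ended 4 of these calls: that of BCL2 without replicate 2 of 1 h or either replicate of 3 h, that of BMF without either replicate of 1 h or replicate 1 of 6 h, that of BBC3 without replicate 1 of 6 h and that of BID without replicate 2 of 1 h. The largest falls were those of BCL2A1, by 1.33 ± 0.15 from 1 to 6 h, and PMAIP1, by 1.11 ± 0.04. PMAIP1 was 12.41 and 12.44 at 1 h, 11.73 and 11.74 at 3 h, and 11.34 and 11.28 at 6 h, so that no 2 times overlapped. MCL1 was 0.30 ± 0.04 higher at 3 h than at 1 h. Each time point of CSKi was therefore compared with the DMSO libraries of the same hour.

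At 1 h in TMD8 none of the 10 genes was called, where 0.05% of the tested features were (6 of 12000). One gene, PMAIP1, had an unadjusted p under 0.05. Its libraries read 9.13 and 9.27 in DMSO and 8.90 and 8.85 in CSKi, a difference of -0.33 ± 0.08 (adjusted p = 0.414). The duplicates did not overlap, and neither did those of BBC3, BCL2L11 and BID. With 2 libraries a group, such separation is common without any change. The share of all features without overlap was not counted, so no change is read from it. The 95% intervals of BCL2L11 and MCL1 were the narrowest, at -0.11 to 0.01 and -0.10 to 0.07 on the log2 scale.

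By 3 h in TMD8, 3 BH3-only genes rose and 2 pro-survival genes fell, while 1.48% of features were called higher and 3.26% lower. BCL2A1 stood at 12.31 and 12.26 in DMSO and at 11.62 and 11.61 in CSKi, so both CSKi libraries lay below all 8 TMD8 vehicle libraries. It fell by 0.67 ± 0.05, which is 1.60-fold (adjusted p = 1.1e-09). BCL2L1 was 10.50 and 10.53 in DMSO and 10.23 and 10.05 in CSKi, and fell by 0.37 ± 0.06 (adjusted p = 3.1e-04). The antisense gene ABALON covers 43.0% of the BCL2L1 exon bases, and no source used here gives the strand setting of the counting, so reads of these genes cannot be told apart. BMF was 11.37 and 11.51 in DMSO and 11.81 and 11.99 in CSKi, and rose by 0.46 ± 0.06 (adjusted p = 2.1e-05). BCL2L11 was 14.27 and 14.25 in DMSO and 14.54 and 14.55 in CSKi, and rose by 0.28 ± 0.03 (adjusted p = 2.2e-07). Its exons share 10.9% of their bases with MIR4435-2HG on the other strand, and those of BMF 8.46% with BMF-AS1. BBC3 rose by 0.45 ± 0.10 (adjusted p = 0.0039), a call that was lost without CSKi replicate 1, CSKi replicate 2 or DMSO replicate 1 (adjusted p up to 0.183). BCL2, MCL1, PMAIP1, HRK and BID did not pass, with differences from -0.20 (HRK) to 0.10 (BCL2).

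At 6 h in TMD8 BCL2L11, BMF and BBC3 were again called higher, where 5.67% of features were, and BCL2A1 and BID lower, where 6.98% were. BMF had the largest difference, with 11.53 and 11.45 in DMSO against 12.17 and 12.11 in CSKi, a rise of 0.65 ± 0.06 or 1.57-fold (adjusted p = 3.7e-08). BCL2L11 stood at 14.46 in both DMSO and at 14.73 in both CSKi libraries, a rise of 0.27 ± 0.03. BCL2A1 was 12.26 and 12.25 against 11.88 and 11.76, and fell by 0.44 ± 0.05 (adjusted p = 1.2e-06). BCL2L1 no longer passed at -0.17 ± 0.06 (adjusted p = 0.0766), though it passed with voom on recovered reads and with only the groups compared (adjusted p down to 0.0307). The BBC3 rise of 0.32 ± 0.10 (adjusted p = 0.0237) was lost without CSKi replicate 1, DMSO replicate 1 or DMSO replicate 2, with no filter on low features and with no variance trend. The BID fall of 0.19 ± 0.05 was lost without CSKi replicate 2 or DMSO replicate 1 (adjusted p up to 0.0867). The calls for BMF, BCL2L11 and BCL2A1 held under every alternative at 3, 6 and 24 h.

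After 24 h in TMD8, 9 of the 10 genes were called, 6 higher and 3 lower, at a time when 27.9% of features were called higher and 26.2% lower. Of all calls at this hour, 51.57% were higher, and 44.53% when scaled to total mapped reads. The members' median log2 difference was 0.39, beside 0.02 for all tested features. HRK, a BH3-only gene best known from neurons, had the largest difference. Its libraries held 34 and 34 reads in DMSO and 112 and 97 in CSKi, or 6.02 and 5.49 against 7.80 and 7.59 on the log2 scale. It rose by 1.95 ± 0.23, which is 3.85-fold (adjusted p = 1.2e-07). At 1, 3 and 6 h the HRK duplicates of both treatments overlapped, with 38 to 62 reads per library.

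BMF at 24 h was 10.56 and 10.59 in DMSO and 12.12 and 11.92 in CSKi, 2.72-fold higher (1.45 ± 0.06, adjusted p = 2.4e-15). BCL2L11 was 14.05 and 14.03 against 14.63 and 14.64, and rose by 0.59 ± 0.03 (adjusted p = 1.7e-14). BBC3 rose by 0.66 ± 0.10 (adjusted p = 2.5e-06), from 8.71 and 8.79 to 9.46 and 9.34, and this call held without any single library. In the other direction, BID fell by 0.59 ± 0.05 (adjusted p = 2.7e-10) and PMAIP1 by 0.33 ± 0.08 (adjusted p = 0.0015).

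Among the pro-survival genes at 24 h, BCL2 was 12.11 and 12.10 in DMSO and 12.61 and 12.70 in CSKi, and rose by 0.55 ± 0.04, or 1.46-fold (adjusted p = 1.3e-10). MCL1 rose by 0.23 ± 0.04 (adjusted p = 4.2e-05). BCL2A1 remained lower, by 0.38 ± 0.05 (adjusted p = 1.1e-06). BCL2L1 did not pass at 0.12 ± 0.06 (adjusted p = 0.115), though it did with quantile normalization (adjusted p = 0.0487). Pro-survival and BH3-only genes thus each held members called in both directions at this hour. At the same hour, 3 of the 6 fibroblast and epithelium markers were higher in both CSKi libraries than in both DMSO libraries. Their summed normalized count was 1340 to 1496 in CSKi against 538 to 555 in DMSO, with COL1A1 at 10.09 and 10.32 against 8.58 and 8.73 on the log2 scale. EPCAM and KRT19 were listed at 0 in all 4 libraries, and KRT8 overlapped, from 5.39 to 5.89 in DMSO and 5.32 to 5.99 in CSKi. Of the 6 B cell markers, 5 were also higher in both CSKi libraries. Of the 3 germinal centre type markers, LMO2 was lower, at 10.42 and 10.51 against 11.74 and 11.75. S1PR2 was higher, at 7.925 and 7.971 against 7.056 and 7.456, and MME lay between 0 and 0.99. Their summed count was 1625 to 1697 in CSKi against 3550 to 3631 in DMSO, most of it LMO2. Of the 3 activated type markers, BATF was lower, at 11.07 and 11.26 against 12.21 and 12.30, and PTPN1 lower, at 14.746 and 14.765 against 14.877 and 14.883. SH3BP5 was higher, at 13.579 and 13.584 against 13.455 and 13.468. The sums of these markers were 41870 to 42566 against 46173 to 46446. The 5 myeloid markers lay near the floor, from 0 to 3.58 on the log2 scale. Their sums were 13.9 to 17.9 in CSKi against 9.22 to 11.4 in DMSO. CD14, for example, stood at 1.99 in both CSKi libraries and at 0.93 and 1.98 in DMSO. Such values rest on few reads, so no direction is read from them. The 6 T and NK cell markers overlapped. The part of these markers in the BCL2 family values was not tested.

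**Figure D2:**
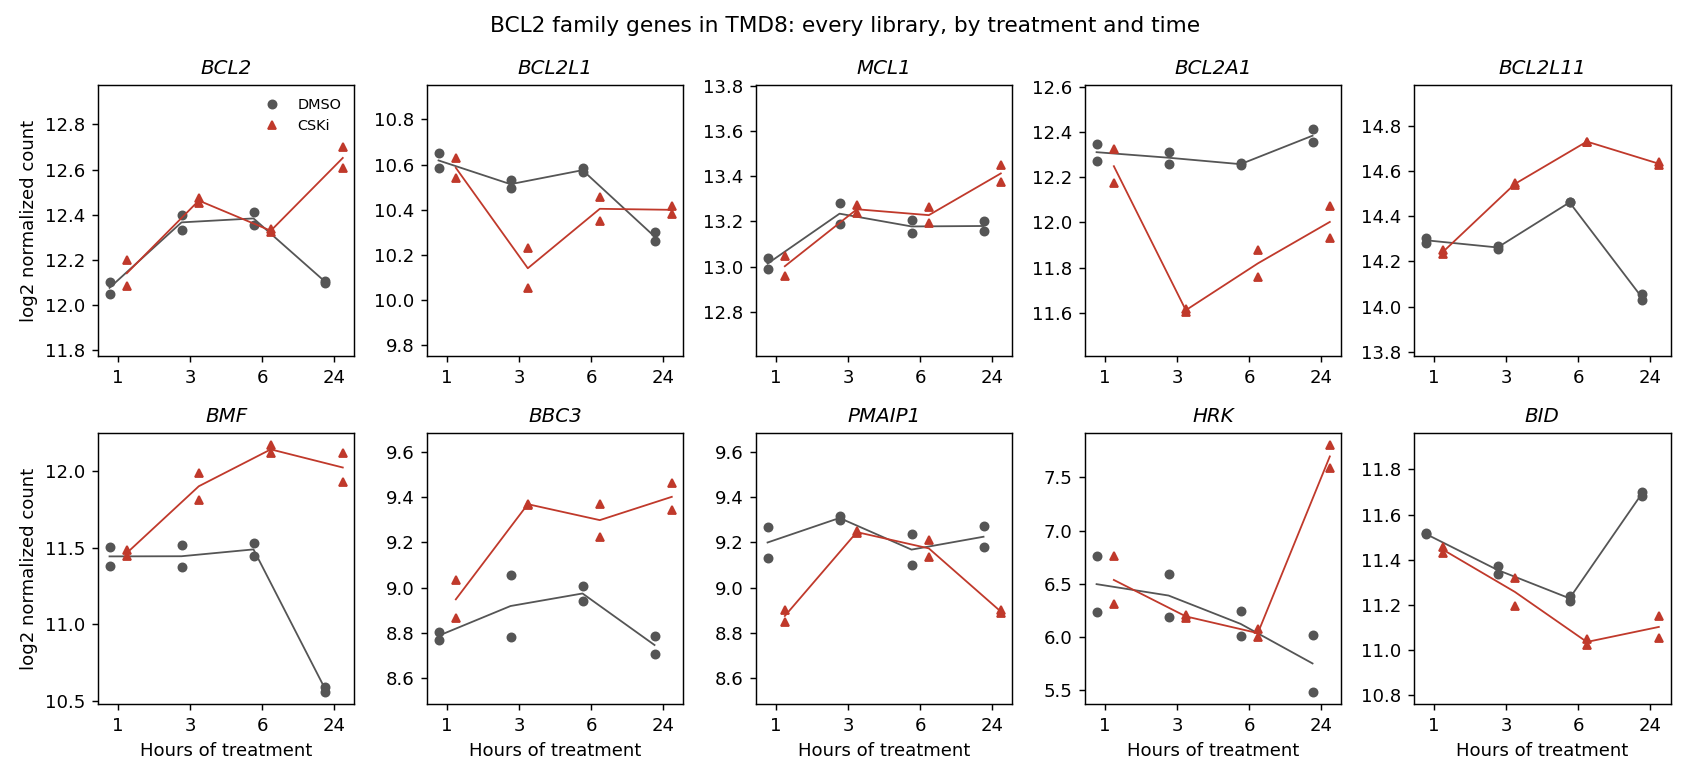
Log2 normalized counts of the 10 genes in every TMD8 library, by hours of treatment. Grey circles are DMSO, red triangles CSKi, lines join the means of the duplicates, and each panel has its own range. BCL2A1 is low in CSKi from 3 h on, between 11.61 and 12.08, whereas DMSO lies between 12.25 and 12.41, and HRK in CSKi stands apart at 24 h only, at 7.59 and 7.80.

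The response in TMD8 changed between 6 and 24 h for 8 of the 10 genes, tested as the difference of the 2 differences. The response moved up for 6, where 15.4% of features did so, and down for 2, where 14.1% did. Of all such calls, 52.18% were higher, and 42.26% when scaled to total mapped reads. HRK changed most, by 2.03 ± 0.33 (adjusted p = 3.2e-05), followed by BMF at 0.80 ± 0.09, BCL2 at 0.60 ± 0.06 and BCL2L11 at 0.32 ± 0.04. BCL2L1 moved by 0.29 ± 0.09 and MCL1 by 0.18 ± 0.06. BID moved by -0.39 ± 0.07 and PMAIP1 by -0.34 ± 0.12. The call of BCL2L1 was lost without CSKi replicate 2 of 6 h or DMSO replicate 2 of 24 h. That of MCL1 was lost without CSKi replicate 1 or DMSO replicate 2 of 6 h or DMSO replicate 1 of 24 h, with no filter, with no variance trend and when scaled to total mapped reads. That of PMAIP1 was lost without replicate 2 of 6 h of either treatment, CSKi replicate 1 or DMSO replicate 2 of 24 h. BCL2A1 and BBC3 did not pass, at 0.06 ± 0.07 and 0.33 ± 0.14, and BBC3 passed without CSKi replicate 2 of 24 h.

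Each arm was then compared across the 2 times, comparisons that were added after the values had been seen. In DMSO from 6 to 24 h, 4 of the 10 genes fell, where 20.9% of features did, and 1 rose, where 20.6% did. BMF fell by 0.91 ± 0.06 (adjusted p = 2.1e-11), BCL2L11 by 0.42 ± 0.03, BCL2L1 by 0.29 ± 0.06 and BCL2 by 0.28 ± 0.04, while BID rose by 0.46 ± 0.05. BBC3, at -0.23 (adjusted p = 0.0583), passed when scaled to total mapped reads and with quantile normalization, and BCL2A1, at 0.13 (adjusted p = 0.0578), with voom. In CSKi from 6 to 24 h, 4 genes rose, where 23.4% of features did, and 2 fell, where 25.4% did. Of the calls in this arm, 47.95% were higher, and 36.21% when scaled to total mapped reads. HRK rose by 1.66 ± 0.23 (adjusted p = 1.9e-06), BCL2 by 0.32 ± 0.04, MCL1 by 0.18 ± 0.04 and BCL2A1 by 0.18 ± 0.05. BCL2L11 fell by 0.10 ± 0.03, by 0.16 when scaled to total mapped reads and by 0.26 with quantile normalization, and PMAIP1 fell by 0.28 ± 0.08.

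The arms therefore differed between genes. For BMF the wider gap at 24 h came with lower DMSO libraries, since CSKi moved by only -0.12 ± 0.06 from 6 to 24 h (adjusted p = 0.126). That BMF value passed without CSKi replicate 1 of 24 h, at -0.22, and when scaled to total mapped reads, at -0.18. For HRK it came with higher CSKi libraries, since DMSO moved by -0.37 ± 0.23 (adjusted p = 0.208). For BCL2 the arms moved in opposite directions. BID was higher in DMSO at 24 h than at 6 h and moved by 0.07 ± 0.05 in CSKi. In the CSKi arm, the BCL2A1 call was lost without replicate 2 of 6 h or of 24 h and when scaled to total mapped reads, and the PMAIP1 call without replicate 2 of 6 h.

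**Figure D3:**
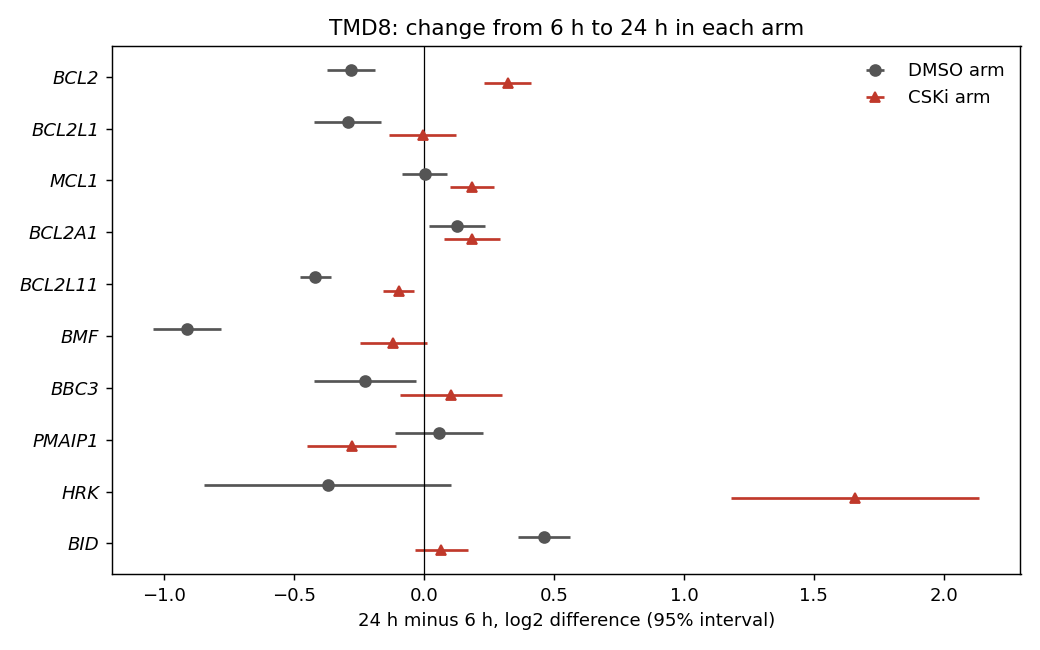
Change of the 10 genes from 6 to 24 h in TMD8, as log2 differences with 95% intervals, for DMSO (grey circles) and CSKi (red triangles). BMF moves by -0.91 in DMSO and -0.12 in CSKi, whereas HRK moves by -0.37 in DMSO and 1.66 in CSKi.

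In DOHH2 the gene with the clearest response was PMAIP1, whose product NOXA binds MCL1 and BCL2A1. At 1 h it was 12.41 and 12.44 in DMSO and 11.93 and 11.98 in CSKi, and fell by 0.47 ± 0.04, or 1.38-fold (adjusted p = 3.3e-08). At 3 h it was 11.73 and 11.74 against 12.40 and 12.28, and rose by 0.60 ± 0.04, or 1.52-fold (adjusted p = 1.4e-10). At 6 h it was 11.34 and 11.28 against 11.72 and 11.67, and rose by 0.38 ± 0.04 (adjusted p = 3.3e-07). The groups did not overlap at any of these times, and the 3 calls held under every alternative, the fit with the 24 h libraries included. From 1 to 3 h the DMSO libraries of PMAIP1 fell by 0.69 ± 0.04, while those of CSKi moved up. Both CSKi libraries of 3 h still lay below both DMSO libraries of 1 h. The change of the response from 1 to 3 h, a comparison added after the values had been seen, was 1.07 ± 0.06 for PMAIP1 (adjusted p = 8.5e-12). No other member passed in it, where 2.93% of features were called higher and 2.42% lower. MCL1, at 0.20 ± 0.06 (adjusted p = 0.0554), passed without CSKi replicate 1 of 1 h or CSKi replicate 2 of 3 h, with 10000 features, with robust variance and with a replicate block, and HRK, at 0.31 ± 0.15, without CSKi replicate 1 of 3 h.

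The other DOHH2 calls were less stable. At 1 h, 3 genes fell, PMAIP1 among them, where 1.23% of features were called lower, and none rose, where 0.825% were. BCL2A1 was 7.85 and 8.25 in DMSO (190 and 161 reads) and 7.30 and 7.32 in CSKi (124 and 71 reads). It fell by 0.74 ± 0.15 (adjusted p = 0.0048), which was lost without DMSO replicate 2 (-0.54, adjusted p = 0.259). MCL1 fell by 0.17 ± 0.04 (adjusted p = 0.0325), which was lost without CSKi replicate 2 or either DMSO replicate. BMF, at 0.18 ± 0.07 (adjusted p = 0.179), passed without CSKi replicate 1 and with a replicate block. With the 24 h libraries in the fit, 1 gene passed in place of 3.

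At 3 h in DOHH2, 3 genes rose and 1 fell, where 7.28% and 7.27% of features did. Of all calls at this hour, 50.03% were higher, and 39.7% when scaled to total mapped reads. BCL2A1 was 7.79 and 7.72 in DMSO and 7.18 and 7.38 in CSKi and fell by 0.47 ± 0.15 (adjusted p = 0.0337). This was lost without CSKi replicate 1 or either DMSO replicate. BCL2L11 rose by 0.13 ± 0.04 (adjusted p = 0.0305), which was lost when any 1 of the 4 libraries was left out and when scaled to total mapped reads. HRK was 8.61 and 8.72 against 8.85 and 9.27 and rose by 0.39 ± 0.11 (adjusted p = 0.0140). Without CSKi replicate 2 it was 0.18, and the call was lost there and without DMSO replicate 1. BMF, at 0.14 ± 0.07 (adjusted p = 0.161), passed without CSKi replicate 1, at 0.25. With the 24 h libraries in the fit, 1 gene passed in place of 4.

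At 6 h in DOHH2, PMAIP1 and HRK rose, where 6.96% of features did, and no member fell, where 6.67% did. HRK was 8.71 and 8.64 in DMSO (317 and 309 reads) and 9.06 and 9.37 in CSKi (500 and 502 reads), and rose by 0.54 ± 0.11 or 1.46-fold (adjusted p = 8.2e-04). Its call held without any 1 of the 4 libraries and was lost with the 24 h libraries in the fit (adjusted p = 0.466) and with no variance trend. BCL2, BCL2L1, BBC3 and BID were not called in DOHH2 at any of the 3 times, with differences between -0.04 and 0.13.

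At 24 h as labelled, no DOHH2 member passed and 0% of features did, with 378 of 12000 at an unadjusted p under 0.05 and none of the members among them. The labelled groups overlapped for all 10 genes. HRK read 9.16 and 8.38 in the libraries labelled DMSO and 8.31 and 9.51 in those labelled CSKi, so each labelled group held 1 high and 1 low library. Without the library labelled CSKi replicate 2, 647 features passed, MCL1 among the members (0.31, adjusted p = 0.0169).

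**Figure D4:**
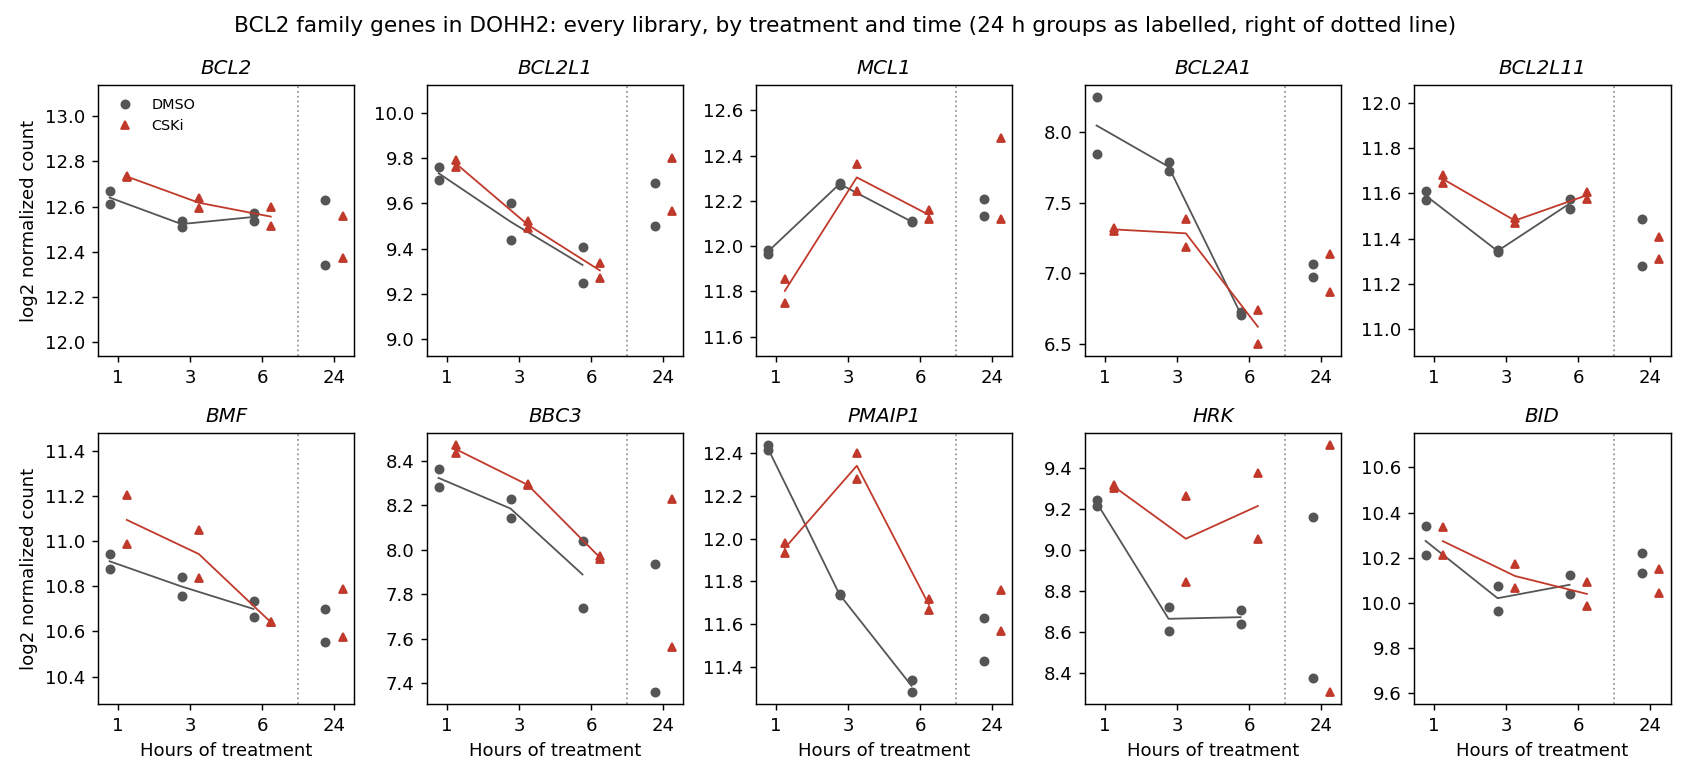
Log2 normalized counts of the 10 genes in every DOHH2 library, by hours of treatment, with DMSO as grey circles and CSKi as red triangles. Lines join the means of the duplicates at 1, 3 and 6 h, and the 24 h groups, right of the dotted line, are shown as labelled and without a line. PMAIP1 in CSKi lies below DMSO at 1 h (11.93 and 11.98 against 12.41 and 12.44) and above it at 3 h (12.40 and 12.28 against 11.73 and 11.74).

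The responses of the 2 lines were compared in 1 fit of 28 libraries. At 1 h, 1 member differed, BCL2A1, whose difference was 0.67 ± 0.14 higher in TMD8 than in DOHH2 (adjusted p = 0.0155): it read -0.06 ± 0.05 in TMD8, which was not called, and -0.74 ± 0.15 in DOHH2. Of all features, 0.333% were called higher and 0.117% lower. This was lost without DOHH2 CSKi replicate 1, DOHH2 CSKi replicate 2, DOHH2 DMSO replicate 2, TMD8 CSKi replicate 1 or TMD8 DMSO replicate 2. At 3 h, 1 member was called higher, where 2.18% of features were, and 2 lower, where 2.64% were. Of all such calls at this hour, 45.25% were higher, and 61.86% when scaled to total mapped reads. PMAIP1 differed by -0.66 ± 0.08 (adjusted p = 1.2e-05), BCL2L1 by -0.36 ± 0.09 (adjusted p = 0.0285) and BCL2L11 by 0.15 ± 0.04 (adjusted p = 0.0196). The BCL2L1 call was lost without any 1 of the 4 DOHH2 libraries but DMSO replicate 2, or any 1 of the 4 TMD8 libraries but CSKi replicate 1. That of BCL2L11 was lost without any 1 of the 4 DOHH2 libraries but CSKi replicate 2, or any 1 of the 4 TMD8 libraries but DMSO replicate 1. BMF, at 0.31 ± 0.11 (adjusted p = 0.117), passed without DOHH2 CSKi replicate 2.

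At 6 h, 2 members were called higher, where 2.52% of features were, and 1 lower, where 3.46% were. BMF differed by 0.71 ± 0.11 (adjusted p = 1.2e-04): it rose in TMD8, and the DOHH2 libraries read 10.67 and 10.73 in DMSO and 10.64 in both of CSKi. BCL2L11 differed by 0.23 ± 0.04 (adjusted p = 1.6e-04), and this call was lost with the DOHH2 24 h libraries in the fit (adjusted p = 0.0626). PMAIP1 differed by -0.37 ± 0.08 (adjusted p = 0.0042). These 3 calls held without any single library. The HRK response did not differ at 3 or 6 h by this test, at -0.59 ± 0.28 and -0.63 ± 0.28 (adjusted p = 0.291 and 0.258). Its level in TMD8 rests on 38 to 60 reads per library at these hours.

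**Figure D5:**
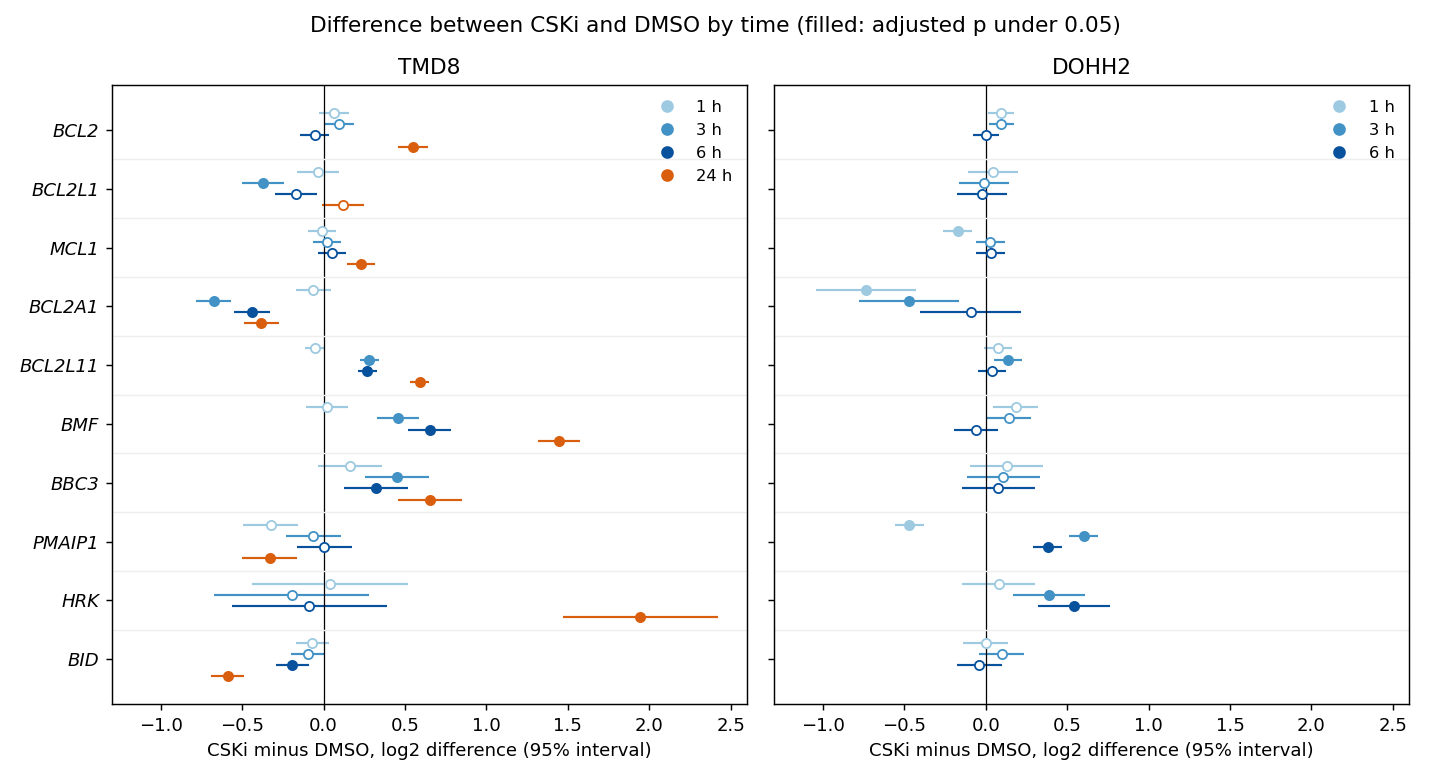
CSKi minus DMSO as log2 differences with 95% intervals for the 10 genes, in TMD8 at 1, 3, 6 and 24 h and in DOHH2 at 1, 3 and 6 h. Filled points passed an adjusted p of 0.05. In TMD8, BMF reaches 1.45 and HRK 1.95 at 24 h, whereas in DOHH2 PMAIP1 lies at -0.47 at 1 h and 0.60 at 3 h.

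Counts for other genes of the pathway in TMD8 are read beside the shares of all tested features: 1.48% called higher and 3.26% lower at 3 h, 5.67% and 6.98% at 6 h, and 27.9% and 26.2% at 24 h. Of 14 further BCL2 family genes, 10 could be tested, and 1 rose and 1 fell at 3 h, 2 rose and 1 fell at 6 h, and 4 rose and 2 fell at 24 h. Their median difference at 24 h was 0.07, beside 0.02 for all features. BIK, a BH3-only gene, fell by 1.59 ± 0.17 at 3 h (adjusted p = 5.2e-07), by 1.44 ± 0.17 at 6 h and by 0.49 ± 0.17 at 24 h. BIK was not among the tested features in DOHH2. BNIP3L, a mitophagy receptor, rose by 0.64 ± 0.07 at 24 h, and the pore formers BAX and BAK1 moved by 0.14 ± 0.04 and -0.18 ± 0.05. In DOHH2, BNIP3L rose by 0.42 ± 0.08 at 3 h, and 1 other of the 9 genes of the list tested there fell, where 7.28% of features rose and 7.27% fell.

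Of 12 genes of the mitochondrial machinery downstream, 2 rose and 5 fell in TMD8 at 24 h, where 27.9% of features rose and 26.2% fell, with a median of -0.12. CYCS, which encodes cytochrome c, fell by 0.58 ± 0.05 and BIRC5 (survivin) by 0.44 ± 0.07, whereas CASP9, the initiator caspase of the apoptosome, rose by 0.24 ± 0.07. BIRC5 had risen at 6 h, by 0.33 ± 0.07. In the death receptor pathway, 4 of the 8 genes tested rose and 2 fell at 24 h, beside the same shares. CASP10, CASP8 and RIPK1 rose by 0.41 ± 0.06, 0.23 ± 0.05 and 0.23 ± 0.05, and CFLAR, the inhibitor of caspase 8, fell by 0.24 ± 0.05. Of 4 ubiquitin ligase and deubiquitinase genes that control the stability of MCL1 or BIM, BTRC rose by 0.22 ± 0.08 and FBXW7 by 0.17 ± 0.07 at 24 h.

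Of 15 transcription factors known to act on the members, 5 fell and none rose in TMD8 at 3 h, 4 fell and none rose at 6 h, and 5 rose and 6 fell at 24 h. The shares of all features at these times were 1.48% higher and 3.26% lower, 5.67% and 6.98%, and 27.9% and 26.2%. MYC fell by 0.86 ± 0.06 at 3 h, 0.69 ± 0.06 at 6 h and 0.77 ± 0.06 at 24 h. NFKB1 fell by 0.28 ± 0.04, 0.38 ± 0.04 and 0.31 ± 0.04 at these times. STAT3 fell by 0.96 ± 0.04 at 24 h, and RELB rose by 0.37 ± 0.04. In DOHH2, 2 of the 15 fell and none rose at 1 h, 2 rose and 2 fell at 3 h, and 4 rose and 1 fell at 6 h, with MYC lower by 0.34 ± 0.04 at 6 h. In that line 0.825% of features were called higher and 1.23% lower at 1 h, 7.28% and 7.27% at 3 h, and 6.96% and 6.67% at 6 h.

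The features most like the 2 members with the smallest adjusted p in TMD8 were found by Pearson correlation of log2 values over the 16 TMD8 libraries, which share the treatment and time groups. BMF was most like DNAJB2 (r = 0.982), TET3 (0.959) and C20orf117 (0.957). BCL2L11 was most like DTX1 (r = 0.968), ETS1 (0.961) and CHN2 (0.95). These values are descriptions over libraries that differ by design.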

How the data were processed

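RNA from TMD8 and DOHH2 was sequenced by paired-end reads of stranded mRNA libraries, per the labels' protocols. Counting used HTSeq on hg19, per the submitters' processing notes, and no source used here names the aligner or the strand setting. The authors deposited 1 table of log2 normalized counts, whose first row, the total mapped reads, was left out of the tests. The smallest values of each library were multiples of 1 read: 97.9 to 100% of values up to 300 reads were whole within 0.1. Recovered reads served for the reads quoted and for 1 alternative.

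The members and gene lists were chosen with earlier results of these data known. Differences were tested with limma 3.58.1 in R 4.3.3 on the log2 values as deposited, with group means, a variance trend and Benjamini-Hochberg adjustment over the 12000 features of highest mean, called under an adjusted p of 0.05. All 10 members passed this filter, which kept features with a mean of at least 20.6 reads in TMD8 and 15.7 in DOHH2. TMD8 was fitted on 16 libraries, DOHH2 on the 12 of 1, 3 and 6 h, the DOHH2 24 h groups on all 16 of that line, and the lines together on 28. Comparisons of CSKi at different times use different DMSO libraries, whereas the differences between responses share libraries with them. Calling was tested on simulated data for TMD8 at 3 h, with 200 of 12000 features changed. There 99% of 2-fold and 68% of smaller changes were called, and 4.02% of calls were false. The simulation used a fixed spread and changes in a single group, unlike these data, so it does not give their error rates. Named genes of each list are the up to 4 called ones with the smallest adjusted p in TMD8 at 3, 6 or 24 h. A gene that this rule names is not reported here. Alternatives were 10000 or 15000 features or no filter, no variance trend, robust variance, voom on recovered reads, total mapped and quantile scaling, a replicate block, the DOHH2 24 h libraries added, only the groups compared, and each library left out. Marker lists covered B, T and NK, myeloid, fibroblast and epithelial cells and the germinal centre and activated types. The labels name no batch.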

Additional observations from a re-analysis of the deposited data

Results flagged for a closer look

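The differences below are those in which a response itself was tested between lines or between times and passed, and each is given as a log2 difference of differences ± SE. Between the lines, the signed difference (CSKi minus DMSO) was higher in TMD8 than in DOHH2 for BCL2A1 at 1 h by 0.67 ± 0.14, with -0.06 ± 0.05 in TMD8 (not called) and -0.74 ± 0.15 in DOHH2. It was higher in TMD8 for BCL2L11 by 0.15 ± 0.04 at 3 h and 0.23 ± 0.04 at 6 h, and for BMF by 0.71 ± 0.11 at 6 h. It was lower in TMD8 for BCL2L1 at 3 h (-0.36 ± 0.09) and for PMAIP1 at 3 h (-0.66 ± 0.08) and 6 h (-0.37 ± 0.08). The calls of BCL2A1 at 1 h and of BCL2L1 and BCL2L11 at 3 h were lost without some single libraries. These 3 calls and that of BCL2L11 at 6 h were lost with the DOHH2 24 h libraries in the fit. Those of BMF and PMAIP1 held under every alternative.

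Within TMD8, the signed difference was higher at 24 h than at 6 h for HRK (2.03 ± 0.33), BMF (0.80 ± 0.09), BCL2 (0.60 ± 0.06), BCL2L11 (0.32 ± 0.04), BCL2L1 (0.29 ± 0.09) and MCL1 (0.18 ± 0.06), and lower for BID (-0.39 ± 0.07) and PMAIP1 (-0.34 ± 0.12). The calls of BCL2L1, MCL1 and PMAIP1 were lost without some single libraries. Within DOHH2, that of PMAIP1 was higher at 3 h than at 1 h by 1.07 ± 0.06, from below DMSO of the same hour to above it. That comparison was added after the values had been seen. DMSO itself fell by 0.69 ± 0.04 (log2) between these hours. The differences between times share the libraries of the comparisons they are made from.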

How the results depend on the processing

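Of 82 member values that passed, 57 passed under every alternative in which they were tested, 62 under every such alternative other than leaving out a library. HRK was not among the 10000 features in the TMD8 fit, so its TMD8 values were not tested there. The members called in TMD8 at 24 h, 9 as reported, ran from 8 to 10 over the alternatives other than leaving out a library. Of the 65 that are signed differences 0 changed sign, and the other 17 are F tests over time, which have none. For the number of members called in DOHH2 with 3 at 1 h, 4 at 3 h and 2 at 6 h, no variance trend gave 1, 1 and 1, the 24 h libraries in the fit 1, 1 and 1, and no filter 1 at 1 h and 2 at 3 h. With the 24 h libraries, 4 of 10 passed over time in vehicle. The line difference in response at 1 h, 1 member, became 0 with no filter, no variance trend, voom or the 24 h libraries, and that at 3 h, 3 members, became 1 with the 24 h libraries. The DOHH2 change from 1 to 3 h, 1 member, became 2 with 10000 features, robust variance or a replicate block.

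Without 1 library each, the number of members called ran from 3 to 4 in TMD8 at 6 h (5 with all), 1 to 4 in DOHH2 at 1 h, 1 to 3 at 3 h, 0 to 1 at 24 h as labelled, 0 to 1 and 1 to 3 for the line difference at 1 and 3 h, and 1 to 2 for the DOHH2 change from 1 to 3 h. A group left with 1 library was taken to vary like the others. These DOHH2 values rest on 2 libraries a group, and HRK in TMD8 and BCL2A1 in DOHH2 on few reads.

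Over all tested features, the number called moved by more than 1.5 times over the alternatives and left-out libraries. It ran from 256 to 1174 in TMD8 at 3 h (568 as reported) and 836 to 2196 at 6 h (1518). In DOHH2 it ran from 46 to 472 at 1 h (246), 315 to 2059 at 3 h (1745), 107 to 2020 at 6 h (1635), 2965 to 6787 over time in vehicle (6343), 14 to 880 for the change from 1 to 3 h (643) and 0 to 647 at 24 h as labelled (0). For the line difference it ran from 16 to 71 at 1 h (54), 151 to 624 at 3 h (579) and 245 to 856 at 6 h (717). Voom on recovered reads called 627 features in TMD8 at 3 h, 1833 at 6 h and 6480 at 24 h.

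Within an hour, the deviations of same-numbered DMSO and CSKi libraries correlated at r = -0.48 in DOHH2 at 24 h, across features. Elsewhere r was -0.01 to 0.17. Whether libraries of the same number belong together was not tested further. With the number as a replicate block, 5, 5 and 9 members passed in TMD8 at 3, 6 and 24 h, 4, 4 and 2 in DOHH2 at 1, 3 and 6 h, and 2 in the change from 1 to 3 h. The block raised the features called in DOHH2 from 246 to 472 at 1 h and from 1745 to 2059 at 3 h. At 6 h they went from 1635 to 2020, and over time in vehicle from 6343 to 6787. For the change from 1 to 3 h they went from 643 to 880. In TMD8 at 3, 6 and 24 h the block gave 580, 1544 and 6523, against 568, 1518 and 6486 without it. For the line difference at 3 and 6 h it lowered them, to 566 and 708.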
